A study of Mus musculus with 20 samples.

Results

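Endoplasmic reticulum (ER) chaperones and genes of the unfolded protein response were described in mouse liver through 10 genes chosen by name: Hspa5, Xbp1, Dnajb9, Herpud1, Sdf2l1, Pdia4, Hsp90b1, Calr, Creld2 and Manf. These genes, and the gene lists below, were chosen with earlier results of these data known. All 10 were found among the 49315 genes of the deposited table, and all 10 passed the low-value filter of the test, a mean of at least 1 TPM (a length-scaled share of a library), with 13401 genes tested in all. The 20 livers were of DIO NASH mice, a model in which obesity and steatohepatitis are brought on by diet. S217879 was given orally to 10 mice, at 30 mg/kg each day, and the vehicle, hydroxyethylcellulose (HEC 1%), to the other 10. Treatment lasted 8 weeks in both groups, and every mouse stayed on the AMLN diet, rich in fat, fructose and cholesterol. Strain, age and sex are not given in the labels, and mice without the diet were not analysed here. By the series title the compound breaks up the NRF2-KEAP1 interaction, in which KEAP1 keeps the stress-response factor NRF2 in check. The question put to these genes was whether their levels, or the balance between them, differed between the groups.

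Hepatocytes fold large amounts of secreted protein in the ER. When unfolded protein builds up there, the membrane sensors IRE1, PERK and ATF6 start the unfolded protein response, a transcriptional program that raises chaperones, disulfide isomerases and the machinery that sends misfolded protein to the proteasome. IRE1 cuts a short stretch out of the Xbp1 mRNA, after which the messenger codes for the active factor XBP1s, while ATF6 is released by proteolysis and PERK slows translation and raises ATF4 and CHOP. The chaperone HSPA5 (BiP, GRP78) binds the sensors in the resting state and is itself one of the strongest targets of the response.

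The promoters of several of these genes carry the ER stress response element (ERSE), CCAAT and CCACG with 9 bases of any kind (N) between them, bound by NF-Y and ATF6 or XBP1s. Windows running from 250 bases before to 50 after each start site were taken from RefSeq (GRCm38.p6) and searched on both strands. Of the 9 windows matched to these genes, 4 held an exact ERSE (Hspa5, Hsp90b1, Calr and Creld2), against 0.119% of 32851 windows of the same length. The related ERSE-II, ATTGG and CCACG with 1 such base between them, was found in Herpud1 and in 0.0365% of windows, and the XBP1 site TGACGTGG (UPRE) in 0 of the 9 and in 0.676% of windows. The NRF2 site core TGACNNNGC stood in 3 of the 9 (Calr, Herpud1 and Sdf2l1) and in 12.4% of windows. The ERSE and ERSE-II stretches are shown because they are the sequence feature that several of these genes share, each read in the direction of the motif, with the motif in capitals and 10 flanking bases on each side.
Hspa5 (chr2:34772015-34772053, gene strand): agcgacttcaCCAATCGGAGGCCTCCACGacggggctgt
Hsp90b1, distal (chr10:86705628-86705666, gene strand): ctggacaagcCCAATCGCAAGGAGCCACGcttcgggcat
Hsp90b1, proximal (chr10:86705523-86705561, opposite strand): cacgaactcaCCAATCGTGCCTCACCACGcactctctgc
Calr (chr8:84847065-84847103, opposite strand): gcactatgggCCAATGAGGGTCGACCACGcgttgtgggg
Creld2 (chr15:88819510-88819548, opposite strand): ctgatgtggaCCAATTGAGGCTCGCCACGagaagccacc
Herpud1, ERSE-II (chr8:94386367-94386397, gene strand): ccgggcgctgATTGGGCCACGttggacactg

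With the start site at 0, the Hspa5 element lay at -65 to -47, those of Hsp90b1 at -212 to -194 and at -107 to -89, that of Calr at -162 to -144, that of Creld2 at -126 to -108 and the ERSE-II of Herpud1 at -52 to -42. A match is a description of letters, not of binding. The 250 bases before the start of Hspa5 and of Dnajb9, the pair whose ratio separated the groups below, are given next. The first holds the exact ERSE (capitals), and the second holds none of the 4 motifs searched.
Hspa5 (chr2:34771840-34772089, plus strand): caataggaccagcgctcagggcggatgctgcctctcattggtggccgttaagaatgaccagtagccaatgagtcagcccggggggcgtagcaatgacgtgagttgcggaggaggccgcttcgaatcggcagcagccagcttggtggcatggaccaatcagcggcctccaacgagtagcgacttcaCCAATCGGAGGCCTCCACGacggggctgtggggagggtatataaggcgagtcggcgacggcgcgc
Dnajb9 (chr12:44210069-44210318, minus strand): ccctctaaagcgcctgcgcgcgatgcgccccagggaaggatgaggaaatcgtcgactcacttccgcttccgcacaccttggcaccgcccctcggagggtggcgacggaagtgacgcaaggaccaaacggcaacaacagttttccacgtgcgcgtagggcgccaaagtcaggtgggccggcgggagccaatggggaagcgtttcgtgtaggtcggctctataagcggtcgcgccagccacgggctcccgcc

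Each liver is 1 library of a separately numbered animal. TPM sums to 1000000 in each, so read depth cannot be recovered and precision rests on the spread between animals. The rRNA-type gene models Gm23935, Gm24270, Gm42418 and Mir6236 together held 14.1% to 38.1% of the TPM of an S217879 library and 17.4% to 58.2% of a vehicle library, with the highest shares in vehicle replicates 6 and 7. Every other gene of a library is lowered when these models take more. Each member is therefore given on the deposited scale and on 2 others, TPM rescaled to the total without these 4 models and TPM after median-of-ratios scaling over genes above 0 in every library. The median log2 difference of all tested genes was -0.12 as deposited, -0.25 without the 4 models and 0.02 after median-of-ratios scaling. Each difference below is to be read beside the median of its scale. Whether that median reflects the library scale or a change in many genes was not tested. In bulk liver, fewer cells of a type and less RNA per cell cannot be told apart.

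The ER chaperone genes were abundant in both groups, and as deposited 0 of 10 were called higher and 0 lower in S217879 livers (limma, Benjamini-Hochberg adjusted p under 0.05), against 6.07% of all tested genes called higher and 23.5% called lower. At an unadjusted p under 0.05 there was 1, Dnajb9, and the share of all genes at that threshold was not computed. A Wilcoxon rank-sum test with adjustment called 0 of the 10, against 833 genes higher and 3234 lower among the 13401 tested. After median-of-ratios scaling 5 of 10 were called higher (Dnajb9, Creld2, Sdf2l1, Manf and Herpud1) and 0 lower, against 30.8% and 22.7% of all genes. Without the 4 rRNA-type models 0 were called higher and 3 lower (Xbp1, Calr and Hsp90b1), against 7.54% and 64.0% of all genes. Quantile normalization gave 1 higher and 3 lower, against 26.4% and 25.0% of all genes, and leaving out vehicle replicates 6 and 7 gave 0 and 3, against 5.52% and 54.5%. The members' median log2 difference was 0.09 as deposited, 0.24 after median-of-ratios scaling and -0.06 without the 4 models, above the median of all genes on each of these scales. After quantile normalization it was -0.04, against 0.005 for all genes, and so below it. The groups overlapped for all 10 genes on all 3 scales. For comparison, 3.73% of all genes did not overlap as deposited, 12.8% after median-of-ratios scaling and 21.3% without the 4 models.

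**Figure D1:**
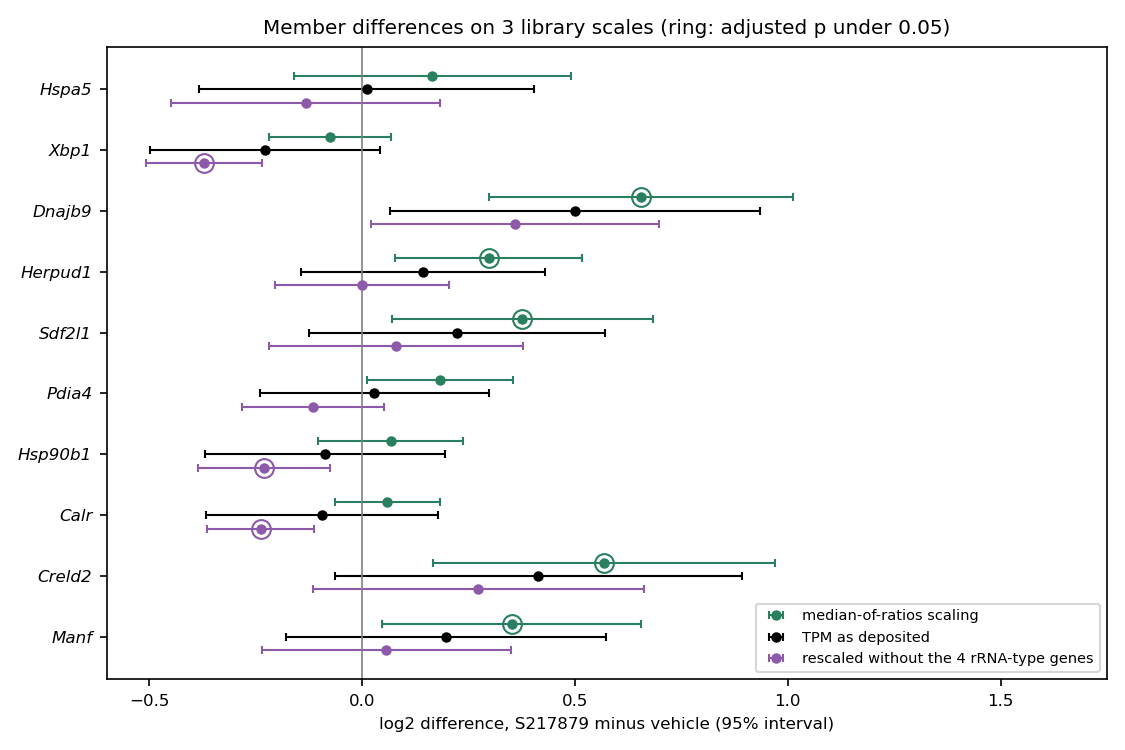
Log2 difference (S217879 minus vehicle) of the 10 genes with 95% intervals on 3 library scales, median-of-ratios, TPM as deposited and TPM rescaled without the 4 rRNA-type models, with a ring where the adjusted p is under 0.05. The rings are Dnajb9, Herpud1, Sdf2l1, Creld2 and Manf on the first scale, none on the deposited scale, and Xbp1, Hsp90b1 and Calr on the rescaled one.

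Xbp1 on chromosome 11 encodes the transcription factor of the IRE1 arm. It was at 83.8 TPM in the lowest, 99.9 in the median and 123.1 in the highest S217879 liver, against 67.8, 130.5 and 156.5 TPM in the vehicle livers. All 10 S217879 livers lay below the vehicle median, while vehicle replicates 6 and 7, at 67.8 and 83.4 TPM, were the lowest of the vehicle group. Xbp1 averaged 102.2 ± 13.3 TPM in S217879 livers and 122.5 ± 28.8 TPM in vehicle livers (SD, n = 10 each), a log2 difference of -0.23 (SE 0.13, limma adjusted p = 0.201). Rescaled without the 4 models, Xbp1 fell to 134.4 ± 12.5 TPM in S217879 livers, against 174.5 ± 20.6 TPM in vehicle livers. Its log2 difference was -0.37 (limma adjusted p = 3.833e-05, at most 0.0001068 with any 1 liver left out), against a median of -0.25 over all tested genes. After median-of-ratios scaling the means were 106.9 ± 10.3 and 112.9 ± 14.1 TPM in S217879 and vehicle livers (log2 difference -0.07, limma adjusted p = 0.374). Left out together, vehicle replicates 6 and 7 moved the deposited value to -0.39 (limma adjusted p = 0.0005862), and without vehicle replicate 6 alone it was -0.32 (limma adjusted p = 0.0177).

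The stretch that IRE1 removes lies in exon 4 of Xbp1. The transcript Xbp1-201 of GENCODE M21 keeps it, and a level per gene does not tell spliced from unspliced messenger. It was found as 26 bases between a pair of the cleavage motif CNGCNG. A second such pair lies in exon 1 and is not known to be cut, and the stretch known to be cut is in capitals.
Xbp1 exon 4 (chr11:5524264-5524320, plus strand, GRCm38): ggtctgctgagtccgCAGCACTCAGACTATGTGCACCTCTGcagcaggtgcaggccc

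Hspa5 on chromosome 2, the HSP70 chaperone of the ER lumen, had close means in the 2 groups as deposited, with a lower median in S217879 livers. It ran from 186.2 over a median of 229.0 to 451.5 TPM in S217879 livers, against 116.2, 283.5 and 402.2 TPM in vehicle livers. In the S217879 group 3 livers, replicates 3, 4 and 6, stood at 344.3, 390.3 and 451.5 TPM, and the other 7 lay at or below 265.7 TPM, under the vehicle median. The means were 273.3 ± 90.5 TPM in S217879 livers and 272.4 ± 79.8 TPM in vehicle livers. The log2 difference was 0.01 as deposited (95% interval -0.38 to 0.40, limma adjusted p = 0.97), 0.16 after median-of-ratios scaling and -0.13 without the 4 models, and its adjusted p was over 0.05 on each. The interval on the deposited scale still holds differences of that size in either direction. After median-of-ratios scaling the medians were 262.0 TPM in S217879 livers and 247.0 TPM in vehicle livers. Without the 4 models they were 337.8 and 400.0 TPM, so which median was higher turned with the scale.

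Dnajb9 on chromosome 12 encodes ERdj4, a J-domain partner of HSPA5 that is induced by XBP1s and, in mouse cells, helps hold IRE1 in its inactive state. Its lowest, median and highest levels were 64.3, 76.7 and 145.1 TPM in S217879 livers and 27.6, 67.6 and 103.1 TPM in vehicle livers. The same 3 S217879 livers that were high for Hspa5, replicates 3, 4 and 6, lay at 139.2, 137.1 and 145.1 TPM, above every vehicle liver. Dnajb9 averaged 93.4 ± 33.2 TPM in S217879 livers and 65.9 ± 20.6 TPM in vehicle livers, with 8 of 10 S217879 livers above the vehicle median. That log2 difference of 0.50 (SE 0.21, 95% interval 0.07 to 0.94) had a limma adjusted p of 0.0763. After median-of-ratios scaling Dnajb9 rose, with 98.0 ± 34.7 TPM in S217879 livers, 60.4 ± 13.6 TPM in vehicle livers and a log2 difference of 0.65 (limma adjusted p = 0.003115). All 10 S217879 livers then lay above the vehicle median, and the adjusted p stayed between 0.001468 and 0.006612 with each liver left out in turn. Rescaled without the 4 models the log2 difference was 0.36 (limma adjusted p = 0.0534).

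Sdf2l1 and Manf work with HSPA5 in the lumen, SDF2L1 in a complex with HSPA5 and its J-domain partners and MANF as a regulator of its nucleotide cycle that is also secreted. Sdf2l1, on chromosome 16, was at 44.6, 64.2 and 125.9 TPM in the lowest, median and highest S217879 liver, against 32.2, 56.7 and 80.1 TPM in the vehicle livers. The highest value belonged to S217879 replicate 6, and the next was 70.8 TPM. As deposited, Sdf2l1 averaged 65.5 ± 23.2 TPM in S217879 livers and 55.7 ± 15.5 TPM in vehicle livers (log2 difference 0.22, SE 0.17, limma adjusted p = 0.347). After median-of-ratios scaling the difference was 0.38 (limma adjusted p = 0.0371), with 8 of 10 S217879 livers above the vehicle median, and it lost the call in 9 of the 20 fits that left out 1 liver, where the adjusted p reached 0.0691.

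Manf, on chromosome 9, ran from 29.1 over 40.2 to 74.2 TPM in S217879 livers and from 17.5 over 41.3 to 63.0 TPM in vehicle livers. The 2 medians were close, and the top value again came from S217879 replicate 6. Its means of 44.6 ± 12.7 TPM in S217879 livers and 39.6 ± 12.5 TPM in vehicle livers gave a log2 difference of 0.20 (SE 0.18, limma adjusted p = 0.448). On the median-of-ratios scale it was 0.35 (limma adjusted p = 0.0481), a call lost in 14 of the 20 fits without 1 liver, S217879 replicate 6 among them. Exons of Manf overlap the protein-coding gene Dcaf1 on the other strand over 380 bases, and the sources used here do not give whether counting used strand.

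**Figure D2:**
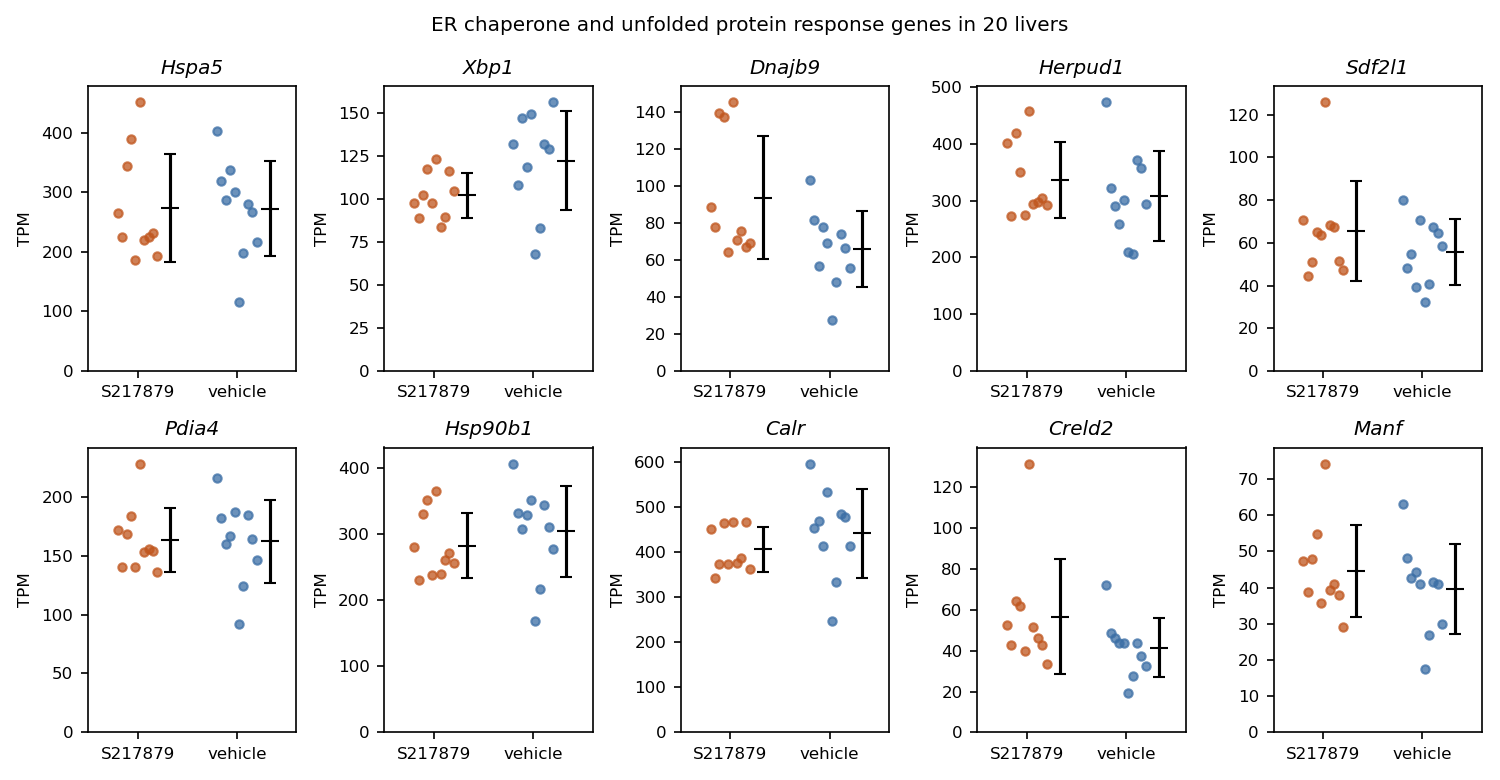
TPM as deposited (y axis, from 0) of each of the 10 genes in the 10 S217879 livers (left) and the 10 vehicle livers (right), 1 point per liver, with the mean and SD beside them. The groups overlap in every panel, S217879 replicate 6 is the highest point of its group throughout, and the 3 high S217879 points of Hspa5 recur in Dnajb9.

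Hsp90b1 and Calr are the calcium-binding chaperones of the list. Hsp90b1, on chromosome 10, encodes GRP94, the HSP90 of the ER, and was at 230.5, 266.9 and 365.3 TPM in the lowest, median and highest S217879 liver, against 169.4, 320.0 and 407.3 TPM in the vehicle livers. Its means of 282.9 ± 49.2 TPM in S217879 livers and 304.9 ± 68.7 TPM in vehicle livers differed by -0.09 on the log2 scale (SE 0.14, limma adjusted p = 0.682). Without the 4 models it fell by 0.23 on the log2 scale (limma adjusted p = 0.009222), next to the median difference of all tested genes, -0.25. On that scale 9 of 10 S217879 livers lay below the vehicle median. After median-of-ratios scaling the sign turned, with a difference of 0.07 (limma adjusted p = 0.509). Exons of Hsp90b1 overlap the opposite-strand pseudogene 1810014B01Rik over 2319 bases, and that gene averaged 3.13 TPM over the 20 livers.

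Calr, on chromosome 8, encodes calreticulin, the lectin chaperone that holds glycoproteins during folding, and had the highest mean of the 10 genes. It was at 342.8, 381.9 and 468.3 TPM in the lowest, median and highest S217879 liver and at 247.6, 462.2 and 597.4 TPM in the corresponding vehicle livers. The lowest vehicle values came from replicates 6 and 7. As deposited the coefficient of variation was 12.2% in S217879 livers and 22.3% in vehicle livers, while without the 4 models the levels were 535.9 ± 50.7 TPM in S217879 livers and 632.4 ± 59.4 TPM in vehicle livers, with a similar relative spread. Means of 406.9 ± 49.8 TPM in S217879 livers and 443.1 ± 98.9 TPM in vehicle livers gave a log2 difference of -0.10 (SE 0.14, limma adjusted p = 0.639). Rescaled without the 4 models, all tested genes had a median log2 difference of -0.25, and 64.0% of them were called lower. Calr fell by a similar 0.24 on that scale (limma adjusted p = 0.001399, at most 0.003339 with any 1 liver left out), and all 10 S217879 livers lay below the vehicle median. On the median-of-ratios scale the difference was 0.06 (limma adjusted p = 0.413).

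Pdia4 and Creld2 act on disulfide bonds, PDIA4 (ERp72) as an isomerase and CRELD2 as an ER protein with isomerase-like motifs. Pdia4, on chromosome 6, ran from 136.3 over 154.6 to 228.1 TPM in S217879 livers and from 91.9 over 165.4 to 215.5 TPM in vehicle livers. Apart from S217879 replicate 6, the S217879 livers spanned 136.3 to 183.9 TPM, inside the vehicle range. The means were 163.3 ± 27.3 TPM in S217879 livers and 162.2 ± 35.0 TPM in vehicle livers (log2 difference 0.03, SE 0.13, limma adjusted p = 0.90), with 0.18 after median-of-ratios scaling and -0.12 without the 4 models, neither below the threshold (limma adjusted p = 0.0672 and 0.202).

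Creld2, on chromosome 15, was at 33.2, 48.8 and 131.5 TPM in the lowest, median and highest S217879 liver, against 19.1, 43.8 and 72.2 TPM in the vehicle livers. S217879 replicate 6 again gave the top value, followed by 64.4 TPM in replicate 3. The means were 56.7 ± 27.98 TPM in S217879 livers and 41.5 ± 14.2 TPM in vehicle livers, and the coefficient of variation in S217879 livers, 49.4%, was the highest of the 10 genes. The log2 difference of 0.41 as deposited (SE 0.23, limma adjusted p = 0.188) became 0.27 when S217879 replicate 6 was left out (limma adjusted p = 0.271). After median-of-ratios scaling Creld2 rose by 0.57 on the log2 scale (limma adjusted p = 0.0177), with 9 of 10 S217879 livers above the vehicle median and an adjusted p of 0.007419 to 0.0342 with each liver left out in turn.

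Herpud1, on chromosome 8, encodes an ER membrane protein of the degradation complex around the ubiquitin ligase HRD1. Its levels were 273.1, 301.0 and 457.3 TPM in the lowest, median and highest S217879 liver, and 206.8, 297.4 and 473.5 TPM in the vehicle livers. It averaged 336.5 ± 66.8 TPM in S217879 livers and 308.6 ± 79.5 TPM in vehicle livers (log2 difference 0.14, SE 0.14, limma adjusted p = 0.479). After median-of-ratios scaling Herpud1 rose by 0.30 on the log2 scale (limma adjusted p = 0.0224, at most 0.0449 with any 1 liver left out), and all 10 S217879 livers lay above the vehicle median. Rescaled without the 4 models the difference was close to 0 (limma adjusted p = 0.993). With vehicle replicates 6 and 7 left out on the median-of-ratios scale, Dnajb9 kept its call (limma adjusted p = 0.0115), while Herpud1, Creld2, Sdf2l1 and Manf had adjusted p-values of 0.0531, 0.0567, 0.0854 and 0.142.

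By mean TPM, which is scaled to length, the genes stood in the same order in both groups: Calr, Herpud1, Hsp90b1, Hspa5, Pdia4, Xbp1, Dnajb9, Sdf2l1, Creld2 and Manf. Several neighbours were close. Herpud1 exceeded Hsp90b1 in 9 of 10 S217879 livers and in 5 of 10 vehicle livers, and Xbp1 exceeded Dnajb9 in 7 of 10 S217879 livers and in 10 of 10 vehicle livers. Hspa5 exceeded Pdia4 in all 10 livers of each group. Of all tested genes 1.55% had a higher mean than Calr and 14.5% a higher mean than Manf, and the summed level of the 10 genes averaged 1825 ± 352.0 TPM in S217879 livers and 1816 ± 422.5 TPM in vehicle livers. The medians of this sum were 1696 TPM in S217879 livers and 1890 TPM in vehicle livers as deposited, 1829 and 1694 TPM after median-of-ratios scaling, and 2383 and 2603 TPM without the 4 models, so which group was higher turned with the scale.

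A ratio of 2 genes in the same liver does not depend on the library scale, and by this measure Dnajb9 stood apart from Hspa5. The TPM of Dnajb9 divided by that of Hspa5 was 0.289 in the lowest, 0.341 in the median and 0.404 in the highest S217879 liver, against 0.199, 0.245 and 0.264 in the vehicle livers. The lowest S217879 liver thus lay above the highest vehicle liver. Divided by Hspa5 in this way, 1.51% of all tested genes had groups that did not overlap, and 0.664% had every S217879 liver above every vehicle liver. The mean ratio was 0.341 ± 0.030 in S217879 livers and 0.242 ± 0.019 in vehicle livers (SD, n = 10 each), a log2 difference of 0.49 (SE 0.17, 95% interval 0.15 to 0.83, limma adjusted p = 0.0455).

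The ratio of Dnajb9 to Hspa5 was thus called higher, as 1 of the 9 ratios, with 0 called lower, against 3.03% of all genes called higher and 8.32% lower relative to Hspa5. This comparison was added after the values had been seen. The call was close to the threshold: it was lost in 14 of 20 fits that left out 1 liver (limma adjusted p from 0.0112 to 0.107) and without vehicle replicates 6 and 7 (limma adjusted p = 0.0949), while the log2 difference stayed between 0.46 and 0.52. Within groups the log2 ratio of Dnajb9 to Hspa5 had an SD of 0.122, against a median of 0.402 over all genes, and limma draws the spread of a single gene towards that of the rest.

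**Figure D3:**
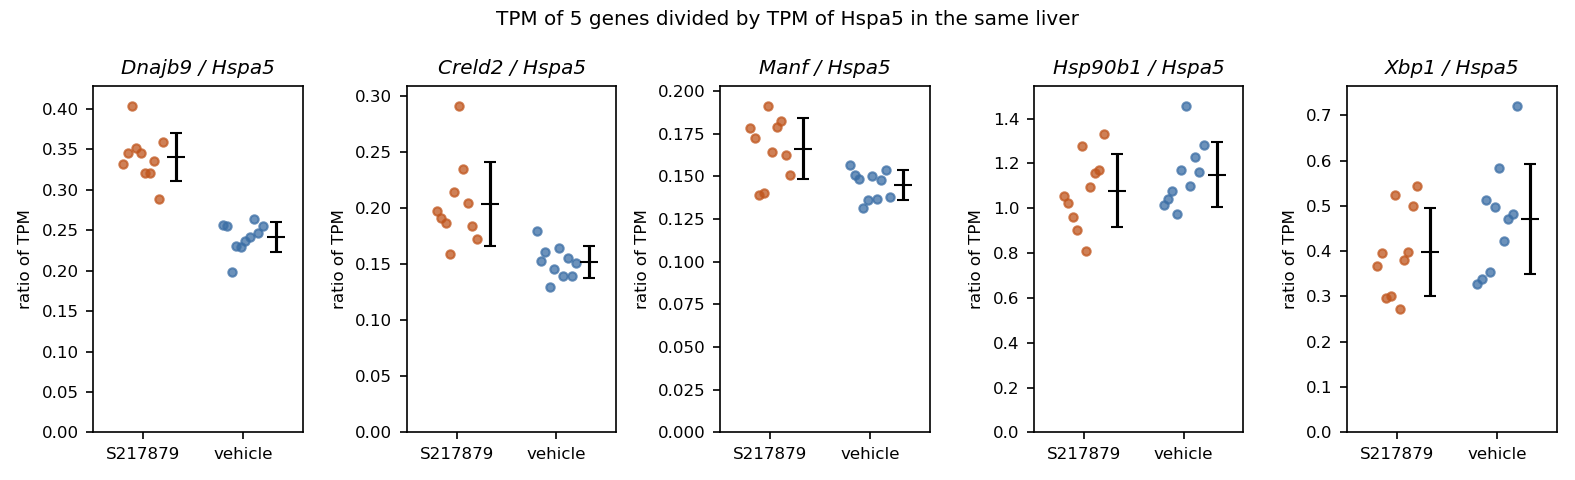
TPM of Dnajb9, Creld2, Manf, Hsp90b1 and Xbp1 divided by the TPM of Hspa5 in the same liver (y axis, ratio from 0), for the 10 S217879 livers (left) and the 10 vehicle livers (right), with the mean and SD beside the points. The S217879 livers lie between 0.289 and 0.404 for Dnajb9, above all vehicle livers, and the groups overlap in the other 4 panels.

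Creld2 relative to Hspa5 was 0.159 in the lowest, 0.194 in the median and 0.291 in the highest S217879 liver, against 0.130, 0.152 and 0.180 in the vehicle livers. All 10 S217879 livers exceeded the vehicle median, with overlap between the groups. Its log2 difference of 0.40 had a limma adjusted p of 0.121. Manf relative to Hspa5 averaged 0.166 ± 0.018 in S217879 livers and 0.145 ± 0.0086 in vehicle livers, with 8 of 10 S217879 livers above the vehicle median (log2 difference 0.19, limma adjusted p = 0.572). The remaining 6 ratios had log2 differences from -0.24 for Xbp1 to 0.21 for Sdf2l1, none past the threshold.

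Dnajb9 set against Xbp1, the factor known to induce it, gave a ratio of 0.577 in the lowest, 0.860 in the median and 1.36 in the highest S217879 liver, and of 0.354, 0.537 and 0.781 in the vehicle livers. In this description, for which no test was made, 7 of 10 S217879 livers lay above the highest vehicle liver. Creld2 set against Calr averaged 0.137 ± 0.056 in S217879 livers and 0.0920 ± 0.015 in vehicle livers, with 5 S217879 livers above the highest vehicle liver. Sdf2l1 set against Calr averaged 0.160 ± 0.044 in S217879 livers and 0.125 ± 0.015 in vehicle livers, also with 5 above. Herpud1 set against Hsp90b1 averaged 1.19 ± 0.12 and 1.02 ± 0.14, with 3 above. These unplanned pairs each put a gene higher in S217879 livers by mean TPM over one lower, which favours a higher ratio. Their share over all pairs was not computed.

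Among animals of a group most of the genes varied together with Hspa5. On the median-of-ratios scale 6 of 9 genes were correlated with it across the 10 S217879 livers and 6 of 9 across the 10 vehicle livers (Pearson's r, permutation test of 100000 resamples, two-sided, adjusted over 18 relations). The share of all tested genes correlated with Hspa5 in this way was not computed, so these counts have no background beside them. Dnajb9 followed Hspa5 with r = 0.966 (permutation p = 6e-05, adjusted 0.00025) and rho = 0.939 (permutation p = 0.0002, adjusted 0.0018) in S217879 livers, and with r = 0.934 (permutation p = 0.00013, adjusted 0.00033) and rho = 0.806 (permutation p = 0.0067, adjusted 0.013) in vehicle livers. Without the 2 livers farthest from the median of Hspa5, r was 0.939 and 0.826 in S217879 and vehicle livers. So Dnajb9 and Hspa5 moved together within each group, at a different ratio in each.

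Hsp90b1, Manf, Creld2 and Pdia4 were the other genes that passed in both groups, with r from 0.877 to 0.950 in S217879 livers and from 0.897 to 0.963 in vehicle livers. Herpud1 passed in S217879 livers (r = 0.816, permutation p = 0.0074, adjusted 0.012, rho = 0.745) and not in vehicle livers (r = 0.203, permutation p = 0.57). Calr passed in vehicle livers by r alone (r = 0.759, permutation p = 0.013, adjusted 0.020, rho = 0.455, permutation p = 0.19) and had r = 0.615 in S217879 livers. Without the 2 farthest livers Herpud1 and Pdia4 in S217879 livers (r = 0.370 and 0.598) and Calr in vehicle livers (r = 0.323) did not pass. Leaving these livers out also means fewer animals and a narrower range of Hspa5. Whether these 3 relations rest on those animals can therefore not be told. Xbp1 and Sdf2l1 passed in neither group, with r = 0.618 and 0.569 in S217879 livers and 0.005 and 0.047 in vehicle livers. These non-calls in vehicle livers depend on the scale. On TPM as deposited 9 of 9 genes passed there, with r = 0.699 for Xbp1, 0.661 for Sdf2l1 and 0.739 for Herpud1, and without the 4 models 5 of 9 passed, with r = -0.199, -0.103 and 0.042 for those genes. In S217879 livers 6 of 9 passed on each of these scales. Differences in r between the groups were not tested.

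Over all 20 livers with the group means removed, the 45 pairs of genes had a median r of 0.678, from 0.131 to 0.955, and 33 pairs exceeded 0.5. The closest were Hspa5 with Dnajb9 and Dnajb9 with Hsp90b1, both at r = 0.955, and Creld2 with Manf and with Pdia4, both at r = 0.951. Xbp1 was the least connected, with r from 0.131 to 0.327 to the other 9. These livers share their libraries and scaling, and the values are a description. S217879 replicate 6, high for most genes, is among the 20 livers, and r without it was not computed. Outside the list, the 5 genes most like the members by median r over the 20 livers were Hyou1 (0.884), Sel1l (0.875), Hsph1 (0.872), Syvn1 (0.864) and Atp2a2 (0.863), against a median of 0.0427 over all genes. They were picked as the highest by this r, so their place above that median follows from the choice. HYOU1 is the nucleotide exchange factor of HSPA5, SEL1L and SYVN1 form the HRD1 complex, HSPH1 is a cytosolic HSP110 and ATP2A2 pumps calcium into the ER. Their log2 differences as deposited ran from -0.14 for Atp2a2 to 0.27 for Syvn1, with limma adjusted p of 0.238 or more. After median-of-ratios scaling 3 of the 5 were called higher, Syvn1 by 0.42, Hyou1 by 0.39 and Sel1l by 0.25 on the log2 scale (limma adjusted p = 0.0168, 0.0478 and 0.0064).

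**Figure D4:**
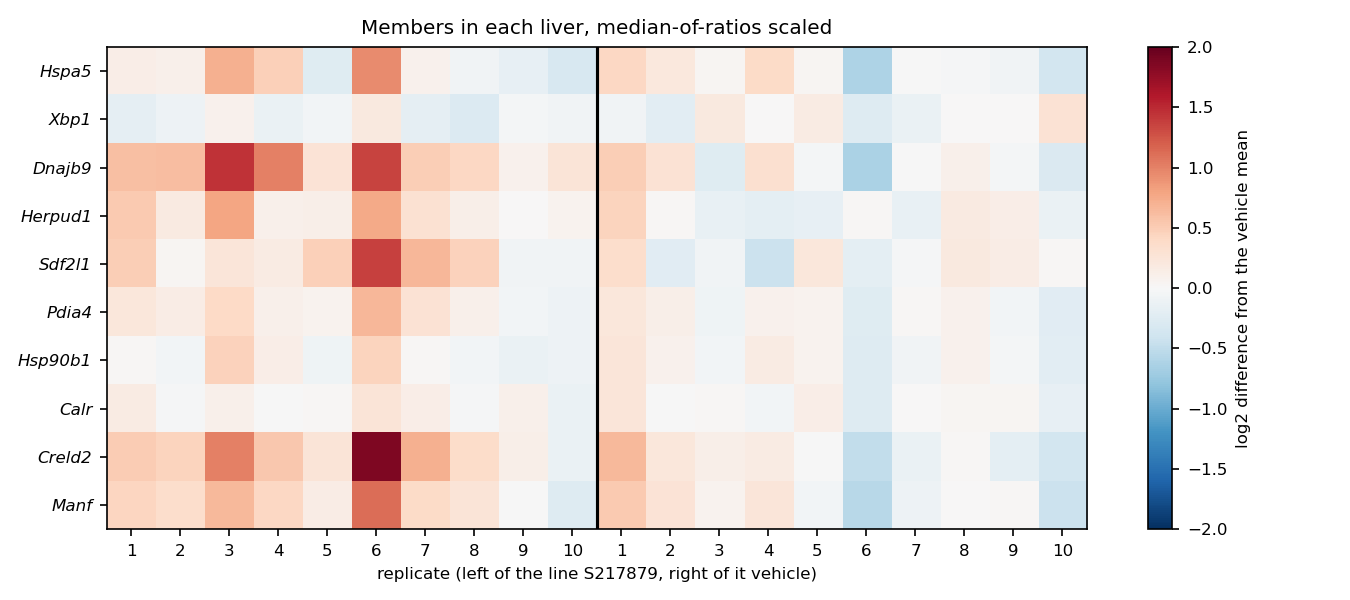
Log2 difference of each gene in each liver from the vehicle mean, after median-of-ratios scaling, with the 10 S217879 livers left of the line and the 10 vehicle livers right of it. S217879 replicates 3 and 6 and vehicle replicate 1 are red for nearly all genes, vehicle replicates 6 and 10 are blue for most, and Xbp1 stays pale throughout.

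The livers that were high were high for most genes. S217879 replicate 6 held the highest value of its group for all 10 genes as deposited and for 7 after median-of-ratios scaling, where replicate 3 held the other 3, and these livers deviated from their group by a median of 0.67 and 0.38 on the log2 scale. Vehicle replicate 1 held the highest vehicle value for 9 genes (median deviation 0.38), and vehicle replicate 6 the lowest for 9 as deposited. Left out of the deposited comparison, S217879 replicate 6 changed 0 calls among the 10 genes. Without vehicle replicate 1, Dnajb9 passed (log2 difference 0.58, limma adjusted p = 0.0371).

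Of 9 genes that sense and process the ER signal, 0 were called higher and 1 lower as deposited, against 6.07% and 23.5% of all genes. After median-of-ratios scaling 2 were called higher and 1 lower, against 30.8% and 22.7%, and without the 4 models 0 higher and 8 lower, against 7.54% and 64.0%. The gene called lower as deposited was Eif2ak3, which encodes PERK. It ran from 4.84 over 6.96 to 9.73 TPM in S217879 livers, against 7.06, 9.71 and 15.2 TPM in vehicle livers, and fell to 7.03 ± 1.35 TPM in S217879 livers, against 10.4 ± 2.23 TPM in vehicle livers (log2 difference -0.53, SE 0.12, limma adjusted p = 0.0004976). It was lower on all 3 scales (limma adjusted p = 0.002718 after median-of-ratios scaling and 1.906e-05 without the 4 models).

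Of 10 tested genes of the PERK arm, 2 were called higher and 2 lower as deposited, against 6.07% and 23.5% of all genes. After median-of-ratios scaling 4 were called higher and 2 lower, against 30.8% and 22.7%, and without the 4 models 2 higher and 6 lower, against 7.54% and 64.0%. Trib3, a pseudokinase induced by ATF4 and CHOP, was at 18 ± 5.77 TPM in S217879 livers and 10.2 ± 3.33 TPM in vehicle livers (log2 difference 0.80, SE 0.19, limma adjusted p = 0.002219). Chac1, a glutathione-degrading enzyme of the same arm, reached 13.7 ± 2.73 TPM in S217879 livers and 8.25 ± 3.15 TPM in vehicle livers (log2 difference 0.75, SE 0.16, limma adjusted p = 0.0009406). For both, 10 of 10 S217879 livers exceeded the vehicle median.

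Atf3, a stress-induced transcription factor, fell to 3.77 ± 0.82 TPM in S217879 livers, against 9.08 ± 1.31 TPM in vehicle livers, with its highest S217879 liver at 4.74 and its lowest vehicle liver at 6.39 TPM (log2 difference -1.18, SE 0.11, limma adjusted p = 7.399e-11). Nupr1, a stress-induced chromatin protein, was at 1.49 ± 0.45 TPM in S217879 livers and 2.64 ± 0.58 TPM in vehicle livers (log2 difference -0.67, SE 0.12, limma adjusted p = 3.721e-05). All 4 genes kept their call and direction on all 3 scales. The called members of this arm thus rose and fell within 1 list whose median, -0.11, was next to that of all genes.

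Calls among the lists of ER folding, import and degradation genes also changed with the scale, to a different extent in each list. As deposited, 6.07% of all genes were called higher and 23.5% lower. Of 18 genes listed under the ER HSP70 system and co-chaperones, Fkbp10 among them, 0 were called higher and 1 lower. Of 5 lectin chaperones the counts were 0 and 0, and of 20 disulfide isomerases and redox enzymes 0 and 1. Of 21 degradation genes they were 1 and 0, and of 21 import and signal peptide genes 1 and 0. After median-of-ratios scaling, with 30.8% of all genes higher and 22.7% lower, these became 13 higher and 1 lower, 2 and 0, 11 and 2, 15 and 0, and 17 and 0, in the same order. Without the 4 models, with 7.54% of all genes higher and 64.0% lower, they were 1 higher and 8 lower, 0 and 5, 1 and 9, 1 and 9, and 2 and 6. The list medians as deposited ran from -0.04 for the lectin chaperones to 0.12 for the import genes, against -0.12 for all genes.

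**Figure D5:**
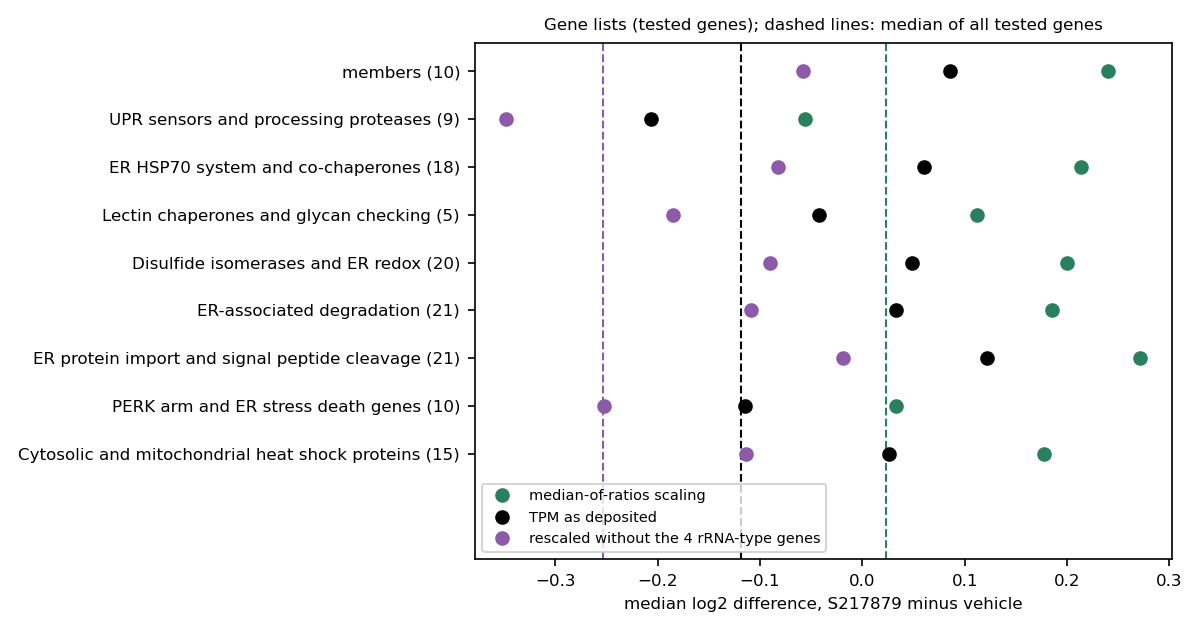
Median log2 difference (S217879 minus vehicle) of the 10 genes and of 8 gene lists, with the number of tested genes in brackets, on 3 library scales, and dashed lines for the median of all tested genes on each. The points of a list move with the scale, most lists lie right of the dashed line of their colour, and the sensors lie left of it.

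The genes called in these lists as deposited were few. Ubxn4, an ER anchor of the degradation machinery, rose to 67.4 ± 6.80 TPM in S217879 livers, against 50.9 ± 10.99 TPM in vehicle livers (log2 difference 0.43, SE 0.12, limma adjusted p = 0.007027), with 10 of 10 above the vehicle median. Ssr3, a subunit of the translocon-associated complex, rose to 141.8 ± 18.7 TPM in S217879 livers, against 110.7 ± 24.3 TPM in vehicle livers (log2 difference 0.39, SE 0.13, limma adjusted p = 0.0262). Pdia5, a disulfide isomerase, fell to 35.0 ± 5.56 TPM in S217879 livers, against 44.8 ± 8.74 TPM in vehicle livers (log2 difference -0.34, SE 0.12, limma adjusted p = 0.0346). Fkbp10, a prolyl isomerase that acts on procollagen, fell to 2.07 ± 0.47 TPM in S217879 livers, against 3.60 ± 0.81 TPM in vehicle livers (log2 difference -0.67, SE 0.12, limma adjusted p = 2.799e-05). These 4 kept their direction and call on all 3 scales. The lectin chaperones Canx and Ganab, the most abundant of a list with 0 calls, had limma adjusted p-values of 0.932 and 0.838 as deposited. Without the 4 models both were called lower (limma adjusted p = 0.0120 and 0.0007218), and after median-of-ratios scaling Ganab was called higher (limma adjusted p = 0.0399) and Canx had an adjusted p of 0.0516.

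Of 15 heat shock proteins outside the ER, 0 were called higher and 1 lower as deposited, against 6.07% and 23.5% of all genes. After median-of-ratios scaling 5 were called higher and 1 lower, against 30.8% and 22.7%, and without the 4 models 1 higher and 4 lower, against 7.54% and 64.0%. Hspb1, a small cytosolic chaperone, fell to 71.3 ± 23.2 TPM in S217879 livers, against 138.6 ± 29.6 TPM in vehicle livers (log2 difference -0.98, SE 0.15, limma adjusted p = 1.238e-06).

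Markers of other cells of the liver differed between the same groups. Of 10 macrophage and fibroblast markers 9 were called lower, against 23.5% of all genes, and their summed level was 304.6 to 564.2 TPM in S217879 livers and 405.6 to 698.0 TPM in vehicle livers. Gpnmb fell to 8.79 ± 2.95 TPM in S217879 livers, against 23.3 ± 4.53 TPM in vehicle livers, and Col1a1 to 23.9 ± 6.54 TPM, against 58.4 ± 11.5 TPM. Plasma cells are rich in ER chaperones, and of 12 tested plasma cell markers 0 were called higher and 2 lower, against 6.07% and 23.5% of all genes. Igha was at 1.00 ± 0.52 TPM in S217879 livers and 3.04 ± 1.6 TPM in vehicle livers. Sdc1 was far more abundant, at 75.6 ± 16.1 and 120.2 ± 20.65 TPM, and which cells it came from was not tested. The list, Sdc1 included, summed to 110.5 to 518.8 TPM in S217879 livers and 168.7 to 1462 TPM in vehicle livers. Hepatocyte markers summed to 34930 to 54040 TPM in S217879 livers and 28310 to 64160 TPM in vehicle livers, so the tissue carried its label. As deposited 2 of 9 were called higher (Ttr and Asgr1) and 2 lower (Apoa1 and Ass1), against 6.07% and 23.5% of all genes. After median-of-ratios scaling 3 were called higher and 2 lower, against 30.8% and 22.7%. Without the 4 models 2 were called higher and 6 lower, against 7.54% and 64.0%. Neural and muscle markers summed to 1.07 to 2.01 TPM in S217879 livers and 1.57 to 2.83 TPM in vehicle livers, with Mbp lower as the only one tested. The part of these cells in the levels of the ER genes was not tested.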

How the data were processed

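Liver RNA of 20 mice was sequenced, 1 library per animal. Per the labels' protocols, an RNeasy lipid kit gave the RNA and a stranded polyA kit the libraries. The submitters' processing notes name GRCm38, Subread 1.5.2, featureCounts, STAR 2.5.2b and Trimmomatic 0.36. Roles, settings, annotation, strand and shared reads were not given in the sources used here. A signal per gene in TPM was deposited by the authors, scaled to gene length and to each library's own total of 1000000, so depth is unknown and no counting interval could be given. Columns were matched to animals by number (0 unmapped), and no 2 libraries were identical (0 pairs). Of 49315 genes 48970 were given a symbol, and 13036 were at 0 throughout.

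Values were taken as log2(TPM + 0.5), which understates changes of low genes. The 13401 genes averaging 1 TPM or more were fitted in R 4.3.3 by limma 3.58.1 (lmFit and eBayes, trend and robust, with group alone), with Benjamini-Hochberg adjusted p under 0.05 over all genes. The steps were tested on simulated data. The members and gene lists were chosen with earlier results of these data known. All 10 members are named, of each list the called genes with the 2 highest and the 2 lowest differences, or else the 2 most abundant, and the 5 genes most like the members. Xbp1 exon positions and gene overlaps come from GENCODE M21, and promoters from RefSeq. Manf had no promoter entry. Ero1a, Ero1b and Tf were not found under these symbols.

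Also tried were other pseudocounts, filters and limma settings, array weights, quantile and median-of-ratios scaling, rescaling without mitochondrial or without the 4 rRNA-type genes, a Wilcoxon test, and leaving out each liver or vehicle replicates 6 and 7. Ratios to Hspa5, and leaving out livers on the other scales and in the ratios, were added after seeing the data. Ratios were tested as differences of log2(TPM + 0.5).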

Additional observations from a re-analysis of the deposited data

Results flagged for a closer look

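In 1 liver, S217879 replicate 6, 3 of the genes stood far above the other 9 of the group. Sdf2l1 was at 125.9 TPM there and next at 70.8 TPM, Pdia4 at 228.1 TPM and next at 183.9 TPM, and Creld2 at 131.5 TPM and next at 64.4 TPM. The gap to the next liver took 0.678, 0.482 and 0.683 of the range of the group for Sdf2l1, Pdia4 and Creld2, over Dixon's critical value of 0.466 for 10 samples. These were 3 of 20 group values examined, where chance gives about 1 in 20. All 3 came from the same animal, so they are not counted as 3 separate events. Over the 20 livers r between these genes was 0.678 to 0.951. This liver is among the 20, and r without it was not computed. Rescaled without the 4 rRNA-type models the shares were 0.624, 0.551 and 0.672, and after median-of-ratios scaling 0.606, 0.417 and 0.599, so Pdia4 no longer stood apart on that scale. Without this liver the deposited log2 differences were 0.11 for Sdf2l1, -0.03 for Pdia4 and 0.27 for Creld2, and 4 genes in place of 5 passed after median-of-ratios scaling.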

How the results depend on the processing

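No paired analysis was possible because the labels give every animal its own number and no number is shared between the groups. Over all tested genes, 813 were called higher and 3151 lower as deposited. Higher calls moved to 4123 with median-of-ratios scaling and 3536 with quantile normalization, and lower calls to 8023 with array weights, 1642 with a minimum of 5 TPM, 8576 without the 4 rRNA-type models and 7303 without vehicle replicates 6 and 7. With each liver left out they ran from 707 to 875 higher and from 2656 to 5195 lower, the last without vehicle replicate 6. Of the 10 genes, 5 were called higher with median-of-ratios scaling, 1 (Dnajb9) with a minimum of 5 TPM and 1 with quantile normalization, and 3 were called lower with array weights, 3 with quantile normalization, 3 without the 4 models and 3 without vehicle replicates 6 and 7. Leaving out each liver gave 0 to 1 higher and 0 to 1 lower as deposited, 3 to 6 higher with median-of-ratios scaling (1 without vehicle replicates 6 and 7), 0 to 1 higher and 3 to 4 lower without the 4 models, and 0 to 1 higher as a ratio to Hspa5 (0 without vehicle replicates 6 and 7). The sign turned for Hspa5 (0.01 as deposited) to -0.20 with array weights, -0.11 with quantile normalization, -0.13 without the 4 models and -0.18 without vehicle replicates 6 and 7, with -0.12 to 0.080 over livers left out. For Pdia4 (0.03) these were -0.11, -0.087, -0.12 and -0.11, with -0.059 to 0.077. Herpud1 came to -0.001 without the 4 models, and Hsp90b1 and Calr to 0.067 and 0.059 with median-of-ratios scaling. Over 10 genes and 33 alternatives, 289 values kept direction and side of the threshold, 21 newly passed and 20 turned in sign, of which the cause was not tested. Of 9 genes, 4 to 6 were correlated with Hspa5 in S217879 livers and 5 to 9 in vehicle livers, the 9 on TPM as deposited. Depth is unknown in TPM and sets no stated limit, so precision is that of 10 animals a group.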
